A study of Arabidopsis thaliana with 4 samples.

Results

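The genes described here are the SUVH family of SU(VAR)3-9 histone methyltransferases of Arabidopsis thaliana, SUVH1 to SUVH9, and the histone demethylase gene IBM1. They were chosen by locus, 10 of the 30361 gene models measured, and all 10 were on the array and entered the test. Transcripts were measured on 4 single-colour Cy3 arrays of seedlings 7 days after germination, 2 labelled wild type of the accession Ler and 2 labelled TEKi. TEKi plants were T3 and carried an artificial microRNA directed at TEK, whose protein binds DNA through an AT-hook. The labels give no promoter for the microRNA and no number of independent lines. They call flowering normal in wild type and late in TEKi, and say that the replicates came from separate cultures.

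Methylation of lysine 9 of histone H3, written H3K9, marks silent chromatin in plants and is tied to DNA methylation in a loop. SUVH proteins carry an SRA domain that binds methylated DNA, and KYP (also SUVH4), SUVH5 and SUVH6 methylate H3K9, which the DNA methyltransferases CMT3 and CMT2 in turn bind. IBM1 is a JmjC demethylase that removes the mark from the bodies of active genes. SUVH2 and SUVH9 have no detectable methyltransferase activity and bring RNA polymerase V to methylated DNA, while SUVH1 and SUVH3 bind methylated DNA and favour expression of nearby genes. SUVH7 is imprinted in endosperm, where the paternal copy is expressed, and the role of SUVH8 is less well known.

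The deposited data assign the arrays in conflicting ways. The values of the array filed as wild type 2 stand under TEKi 1 in the value table of the series, and those of the array filed as TEKi 1 stand under wild type 2, for all 30361 models. Wild type 1 and TEKi 2 are the same array in both sources. Pearson's r of log2 intensity across genes, which are not independent replicates, was 0.934 for the arrays filed as wild type and 0.930 for those filed as TEKi, but 0.972 and 0.974 for the pairs that the value table puts together. Intensities below are given in the order wild type 1, the array filed as wild type 2, the array filed as TEKi 1 and TEKi 2. Array-file labels compare the first pair with the last, and value-table labels compare wild type 1 and the array filed as TEKi 1 with the other arrays. As filed, the arrays compared by value-table labels are replicate 1 against replicate 2, so value-table group and filed replicate cannot be told apart. All differences are TEKi minus wild type in log2 intensity, with n = 2 arrays per group. Adjusted p is from limma across the 30352 genes with no 0 on any array, with a threshold of 0.05.

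None of the 10 genes passed under either set of labels. Array-file labels called 0% of all genes (smallest adjusted p 0.805), and value-table labels called 2.22% (1.95% lower and 0.273% higher on the arrays labelled TEKi). At an unadjusted p under 0.05, 1 member lay with array-file labels, SUVH7, against 4.61% of all genes, and 2 with value-table labels, SUVH8 and SUVH9, against 14.4%. Without moderation of the variances 0 members were called under both, as were 0 of all genes. The median difference of the members was -0.042 with array-file labels, against 0.0060 over all genes, and -0.12 with value-table labels, against 0.090. In 7 members the highest of the 4 arrays was less than 2-fold above the lowest. The 3 members past 2-fold, SUVH7, SUVH8 and SUVH9, are not far from the share of all genes past it, 40.1%. The median log2 range over the arrays was 0.50 for the members and 0.77 for all genes. These were not matched for brightness: 8 members were above 1000 on every array, and the others, SUVH7 and SUVH8, had the widest ranges.

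**Figure D1:**
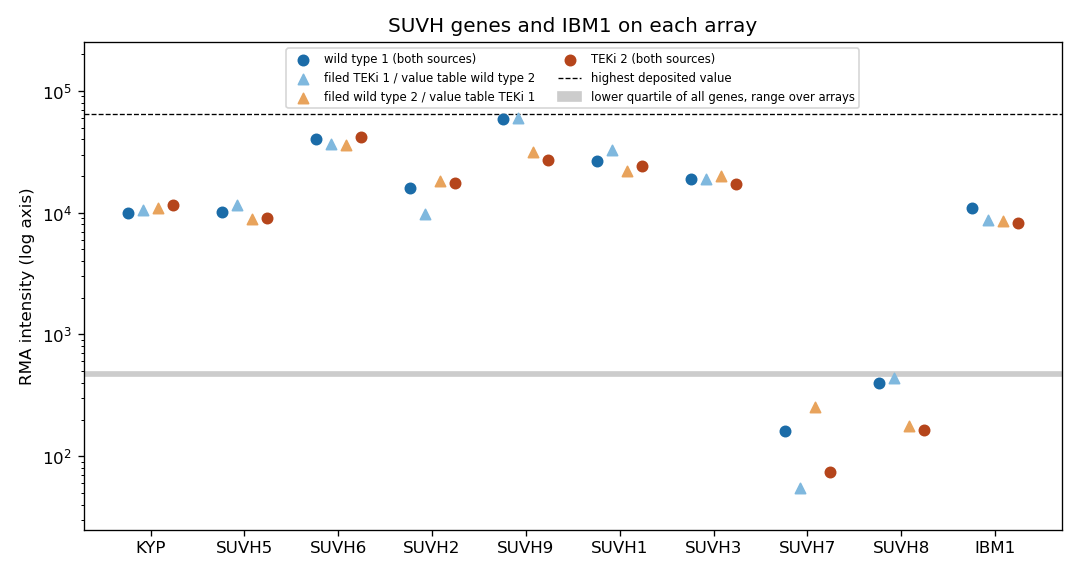
RMA intensity (log axis) of each gene on each of the 4 arrays, with circles for the arrays labelled alike in both sources and triangles for those in conflict; the dashed line is the highest deposited value and the grey band the lower quartile of all genes over the arrays. SUVH9 and SUVH8 are high on wild type 1 and the array filed as TEKi 1 and low on the others, SUVH7 and SUVH8 lie below the grey band, and KYP, SUVH3 and SUVH6 stay within 1.17-fold over the arrays.

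The genes of the active H3K9 methyltransferases varied little. KYP (AT5G13960, chromosome 5, 4501449 to 4506190, genome release 6), the main enzyme of the loop with CMT3, had intensities of 9869, 10901, 10428 and 11528. All arrays lay within 1.17-fold, and the arrays that the value table labels TEKi were slightly above the others. The difference was 0.080 with array-file labels (SE 0.180, 95% interval -0.46 to 0.62, adjusted p = 1) and 0.14 with value-table labels (SE 0.158, -0.32 to 0.61, adjusted p = 0.776). SUVH5 (AT2G35160, chromosome 2, 14829903 to 14833241), which acts partly in parallel with KYP, had 10035, 8806, 11577 and 9013. Its highest array was that filed as TEKi 1, and the value-table groups did not overlap, with a difference of -0.27 (SE 0.171, -0.78 to 0.23, adjusted p = 0.596). With array-file labels the groups overlapped, and the difference was 0.12 (SE 0.226, adjusted p = 1). SUVH6 (AT2G22740, chromosome 2, 9669718 to 9674061) had 40356, 36108, 36660 and 42005, with the groups overlapping under both sets of labels. The difference was 0.040 (-0.53 to 0.61) and 0.018 (-0.51 to 0.55). Its model overlaps the transporter gene AT2G22730, and the files do not say how far the probes separate them. For KYP, SUVH5 (array-file interval -0.57 to 0.81) and SUVH6 the intervals under both sets of labels exclude a 2-fold change, a log2 difference of 1 in size.

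SUVH9 had the clearest pattern among the bright members. SUVH9 (AT4G13460, chromosome 4, 7824030 to 7827000) had 58527, 31543, 60071 and 27049. It was about 2-fold higher on wild type 1 and the array filed as TEKi 1 than on the other arrays, so each array-file group held a high and a low array. As filed, both high arrays are replicate 1 and both low arrays replicate 2, so a difference between replicates cannot be told apart from the value-table groups. The array-file difference was -0.092 (SE 0.590, -1.88 to 1.70, adjusted p = 1). With value-table labels the arrays labelled TEKi were 2.03-fold lower (log2 difference -1.02, SE 0.174, -1.53 to -0.51), an unadjusted p of 0.00625 that missed the threshold after adjustment (adjusted p = 0.124). A fit with a mean-variance trend called it (adjusted p = 0.00992), and it was the 1 member called there. That fit called 1150 of all 30352 genes. Of all genes, 14.6% had a value-table difference at least as large. The high arrays reached 91.4% and 93.8% of the highest deposited value, 64047, which 342 to 419 genes share on each array, and a difference measured so near it can be compressed.

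SUVH2, the closest relative of SUVH9 in function, did not share that pattern. SUVH2 (AT2G33290, chromosome 2, 14117041 to 14119464) had 15962, 18269, 9673 and 17488. The array filed as TEKi 1 alone was low, and the other arrays lay close together. The difference was -0.39 with array-file labels (SE 0.378, -1.54 to 0.75, adjusted p = 1) and 0.52 with value-table labels (SE 0.313, -0.39 to 1.44, adjusted p = 0.578). The sign thus depended on the labels, and the intervals allow more than a 2-fold fall with array-file labels and more than a 2-fold rise with value-table labels. Whether SUVH2 and SUVH9 differ in their change was not tested.

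The genes next to SUVH9 were compared with it on the same arrays. AT4G13455, a Copia-like retrotransposon gene that ends 2.38 kb before the lower coordinate of SUVH9, had 974, 514, 958 and 368. It was high and low on the same arrays as SUVH9, with a value-table difference of -1.15 (adjusted p = 0.172). AT4G13470, of unknown function and 0.969 kb on the other side, was dim at 126, 107, 318 and 55.3 (value-table difference -1.38, adjusted p = 0.475). Transposable element genes were those whose description names a transposon or retroelement, and SUVH9 was the member closest to such a gene. For SUVH8 the nearest, LINE gene AT2G24760, lay 15.1 kb away at 17944, 16242, 15028 and 15197. For the other 8 members the distance ran from 107 to 297 kb.

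SUVH1 and SUVH3, the anti-silencing members, stayed within 1.49-fold and 1.16-fold over the arrays. SUVH1 (AT5G04940, chromosome 5, 1454168 to 1456991) had 26631, 21907, 32730 and 24071. The array filed as TEKi 1 was highest, and the value-table groups did not overlap. The difference was 0.22 with array-file labels (SE 0.261, adjusted p = 1) and -0.36 with value-table labels (SE 0.196, -0.94 to 0.21, adjusted p = 0.538). SUVH3 (AT1G73100, chromosome 1, 27494885 to 27497843) had 18867, 19955, 18885 and 17263, and the groups overlapped under both sets of labels. Its difference was -0.10 (-0.62 to 0.42) and -0.024 (-0.53 to 0.48), and both intervals exclude a 2-fold change.

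SUVH7 and SUVH8 were dim, below the lower quartile of all genes on every array (456 to 496). No detection calls were used, so these values may lie at background, and the folds describe deposited intensities. SUVH8 (AT2G24740, chromosome 2, 10536769 to 10539036) had 401, 178, 440 and 164. It was high and low on the same arrays as SUVH9. With value-table labels the arrays labelled TEKi were 2.46-fold lower (log2 difference -1.30, SE 0.166, -1.78 to -0.81, unadjusted p = 0.00244, adjusted p = 0.0747), and with array-file labels the difference was 0.0082 (SE 0.736, adjusted p = 1). SUVH8 was not called with the mean-variance trend either (adjusted p = 0.330). SUVH7 (AT1G17770, chromosome 1, 6120734 to 6122815) had 160, 252, 55.3 and 74.7. Both arrays filed as TEKi were below both filed as wild type, a difference of -1.65 (SE 0.346, -2.69 to -0.60, unadjusted p = 0.0142, adjusted p = 1). With value-table labels its groups overlapped (0.54, SE 0.893, adjusted p = 0.858).

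IBM1 was nearly level on 3 of the arrays. IBM1 (AT3G07610, chromosome 3, 2426154 to 2432882) had 10883, 8523, 8646 and 8156. Wild type 1 was the highest, 1.33-fold above TEKi 2, and the other arrays lay close together. The difference was -0.20 with array-file labels (SE 0.215, -0.85 to 0.45, adjusted p = 1) and -0.22 with value-table labels (SE 0.198, -0.80 to 0.36, adjusted p = 0.727). Both intervals exclude a 2-fold change. A methylated intron of IBM1 governs whether its full-length transcript is made. The files do not place the probes relative to that intron, so short and full-length transcripts cannot be told apart.

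**Figure D2:**
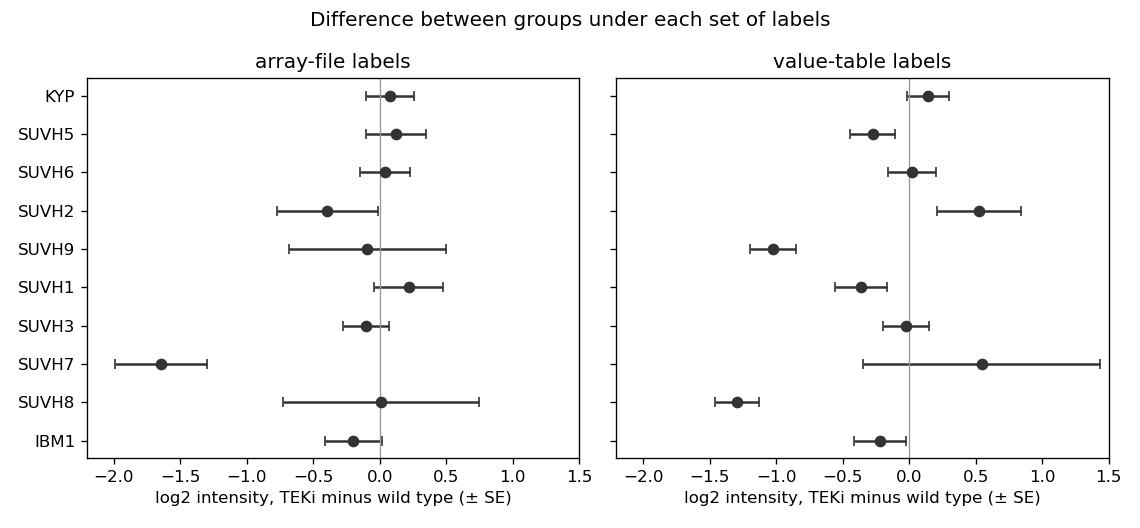
Log2 intensity difference of each gene, TEKi minus wild type, with array-file labels on the left and value-table labels on the right; points are limma estimates and bars the moderated SE with 2 arrays per group. SUVH7 stands at -1.65 on the left, and SUVH8 and SUVH9 at -1.30 and -1.02 on the right, each near 0 or with a wide error in the other panel.

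With array-file labels the arrays of the groups did not overlap for 1 of the 10 members, SUVH7, which was lower in TEKi. That compares with 30.0% of all genes, 14.7% lower and 15.3% higher. With value-table labels this held for 7, against 44.8% of all genes: SUVH1, SUVH5, SUVH8, SUVH9 and IBM1 were lower on both arrays labelled TEKi (5 members, against 17.1% of all genes), and KYP and SUVH2 higher (2 members, against 27.7%). None of these 7 differences passed the test after adjustment. The single pair of arrays free of the label conflict, TEKi 2 against wild type 1, has no replicate check. In both sources it sets replicate 2 against replicate 1, so its group and replicate number cannot be told apart. There 3 members were past 2-fold, against 21.6% of all genes, and all 3 were lower on TEKi 2, against 10.6% of genes lower and 11.0% higher: SUVH8 by 2.44-fold, SUVH9 by 2.16-fold and SUVH7 by 2.15-fold. With 50 added to each intensity SUVH7 no longer passed 2-fold. The other 7 differed by 1.04-fold (SUVH6) to 1.33-fold (IBM1).

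Of the 36 other genes of the pathway, fixed by locus in 7 lists, 0 passed with array-file labels and 3 with value-table labels. Over all genes the shares were 0% and 2.22%. The lists were chosen with earlier results of these data known, so the count is not independent of these data. The 3 came from the list of loci under SUVH or IBM1 control (1 rose and 2 fell of 6). ROS1, a DNA glycosylase that removes methylcytosine and needs SUVH1 for full expression, had 4387, 26846, 3879 and 31391 and was 7.04-fold higher on the arrays that the value table labels TEKi (adjusted p = 0.0246). SUVH1 differed by 1.29-fold the other way on those arrays, which did not pass. SDC, an F-box gene silenced by DNA methylation (63372, 981, 46666 and 1019), and FWA, a homeobox gene silenced likewise (39799, 350, 37534 and 111), were lower on the arrays labelled TEKi (adjusted p = 0.0133 and 0.0357). Both were bright on wild type 1, which both sources label wild type, although such genes are described as silenced. The cause of this was not tested. On wild type 1 SDC was close to the highest deposited value, 64047, so its difference can be compressed. With value-table labels 4 of the 36 were called with median centring, without the dimmest quartile of genes, and with 50 added to each intensity. Over all genes these settings called 784 of 30352, 906 of 22764 and 862 of 30352. The mean-variance trend also gave 4, with 1150 of 30352 genes called. Plain per-gene variance and the replicate block gave 0 of the 36 and 0 of all genes. BNS, whose body gains methylation when IBM1 is lost, had 2990, 4228, 3697 and 3787 (adjusted p = 0.666 in the main test). All 3 calls were lost without any 1 of the 4 arrays, where no gene was called.

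Among the 6 partners of SUVH2 and SUVH9, 0 passed under either set of labels. NRPE1, a catalytic subunit of polymerase V, had 6736, 22325, 6840 and 28661, high where SUVH9 was low (value-table difference 1.90, SE 0.204, adjusted p = 0.0551). MORC6, an ATPase that acts in silencing with SUVH2 and SUVH9, had 8576, 13209, 10120 and 13281 (0.51, adjusted p = 0.354). The remodeller gene DRD1, which acts with polymerase V, had 14701, 9792, 13028 and 11865 (-0.36, adjusted p = 0.539). The median of the 6 was 0.18 with value-table labels and 0.066 with array-file labels.

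DNA methyltransferases and readers of H3K9 methylation (0 of 9 called under either set) were also mostly level. CMT3, the partner of KYP, had 28149, 31160, 30931 and 31139. MET1, which maintains CG methylation, had 30916, 53840, 53046 and 51020, with wild type 1 low and the other arrays close together (0.35 with array-file labels and 0.37 with value-table labels, adjusted p = 1 and 0.722). DRM1, a relative of the de novo methyltransferase DRM2, was below the median of all genes on every array. It spread widely at 1113, 573, 809 and 238 (-0.87 and -1.36, adjusted p = 1 and 0.401).

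In the 4 smaller lists 0 genes passed under either set of labels. Of the genes that control the IBM1 transcript, IBM2 had 3392, 3531, 3493 and 3474, within 1.04-fold, and EDM2 had 41463, 45244, 40414 and 45797, within 1.13-fold. The remaining gene, AT1G05970, had 5137, 3917, 4559 and 3337 (-0.42 with value-table labels, adjusted p = 0.455). All 5 genes listed as JmjC relatives of IBM1 differed by at most 0.23 in size with array-file labels and 0.21 with value-table labels. The 0.21 belonged to JMJ24, which was at the highest deposited value on wild type 1, so its difference can be compressed. Among the 5 SUVR genes, a sister family of SET-domain proteins, SUVR4 had the largest value-table difference, 0.40, at 1386, 1907, 1439 and 1832 (adjusted p = 0.394). Of the 2 DnaJ-type partners of SUVH1 and SUVH3, AT5G64360 had 17529, 16615, 10543 and 17196, low on the array filed as TEKi 1 as SUVH2 was.

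**Figure D3:**
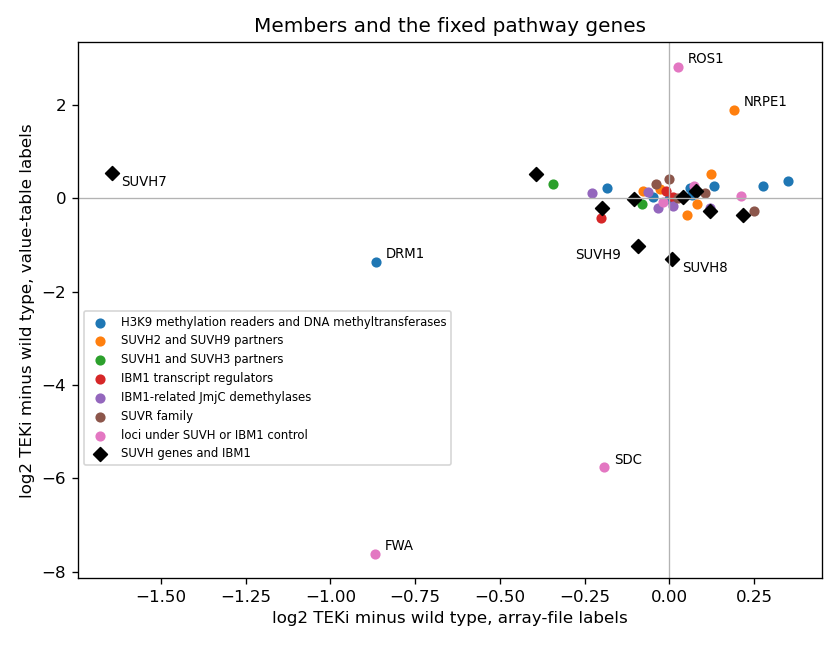
Log2 difference, TEKi minus wild type, of the 10 genes (black diamonds) and the 36 fixed pathway genes (colours by list), with array-file labels on the horizontal axis and value-table labels on the vertical axis, which has the wider scale. ROS1, SDC and FWA, at 2.81, -5.76 and -7.61 on the vertical axis, stand outside the cluster that holds KYP, SUVH1, SUVH2, SUVH3, SUVH5, SUVH6 and IBM1.

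By likeness of profile over the 4 arrays, measured as the root mean square distance of centred log2 values, the genes nearest to IBM1 were AT1G01490 (0.0095), AT4G25610 (0.011) and AT5G11700 (0.012), and 634 genes lay within 0.1. Nearest to SUVH7, the SUVH gene with the widest range, were AT4G06554 (0.058), AT5G16700 (0.063) and AT1G40103 (0.071). SUVH9, added after its values were seen, was nearest to AT4G38500 (0.023), THI2.1 (0.023) and AT4G39235 (0.026), with 46 genes within 0.1. With 4 points many genes match by their high and low arrays alone.

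Markers of other tissues were read on the same arrays. The green-tissue genes RBCS1A and PSBO1 were at or near the highest value on all arrays, while LHCB1.1 was below the median of all genes on each (96.3, 636, 301 and 626). The root genes SHR, SCR and PHO1 were above the median of all genes on every array. The summed intensity of 3 seed and endosperm markers was 30572 on wild type 1 and 28109 on the array filed as TEKi 1, and 3270 and 9779 on the other arrays, the same high and low arrays as for SUVH8 and SUVH9. CRA1 and OLEO1 (14132, 2210, 12713 and 7485) carried that sum. The endosperm gene PHE1 was below the median of all genes on every array and did not follow that sum (769, 321, 878 and 906). Of these 3, CRA1, a seed storage protein gene, passed with value-table labels (adjusted p = 0.0464). The 4 flower and pollen markers summed to 3128, 3521, 1160 and 2797. Of these, AG (1666, 1309, 685 and 725) and AP3 (711, 1417, 188 and 433) were, like SUVH7, lower on both arrays filed as TEKi. Their array-file differences were -1.07 and -1.81 (adjusted p = 1 for each). On those arrays AP3 lay below the lower quartile of all genes (479 and 456), so its values there may lie at background. PI (618, 569, 191 and 687) and the pollen gene VGD1 (132, 227, 95.6 and 952) were highest on TEKi 2. The 8 markers of dividing cells summed to 201018, 224898, 231798 and 210501. Neither list had a gene called under either set of labels. No marker was at 0. The part of any of these tissues in the differences of SUVH7, SUVH8 and SUVH9 was not tested, and in whole seedlings fewer cells of a type and less RNA per cell cannot be told apart.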

How the data were processed

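The authors deposited 1 linear intensity for each of 30361 gene models per array. Per the submitters' processing notes these came from RMA, of unstated version. Models were summarised from 1 to 3 probe pairs, per the file headers. The annotation column gives positions on genome release 6. All 10 members matched a RefSeq table (TAIR10.1), used for names alone. Intensities were converted to log2 without pseudocount or dim-gene filter after 9 genes with a 0 were left out. Groups were compared by limma 3.58.1 (lmFit and eBayes, 2-sided) in R 4.3.3 with Benjamini-Hochberg adjustment over 30352 genes. A run on simulated data set a criterion for the size of the recovered differences alone, and none for the calls. 95% intervals are per gene and unadjusted. For arrays, their number limits the precision. The array-file labels are the main labels. The members, lists and alternatives were chosen with earlier results of these data known. All members were named, and per list the genes called or with the largest differences, at most 4. CMT3, the neighbouring genes and the profile of SUVH9 were added after values were seen. No sequences are printed, since none were among the sources used here.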

Additional observations from a re-analysis of the deposited data

How the results depend on the processing

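With array-file labels 0 members and 0 genes were called under every alternative run except value-table labels, which called 674 genes and 0 members. With value-table labels the 674 genes became 191 without genes below the median, 1150 with a mean-variance trend (1 member, SUVH9, at -1.02), and 0 with plain per-gene variance, at adjusted p = 0.01, with the replicate block, and without any 1 array. The labels name separate cultures, so the shared replicate numbers were not taken as pairs. Deviations of like-numbered arrays correlated at 0.65 with array-file and 0.11 with value-table labels, and the replicate block gave 0 called members under both. Replicate numbers in either source pair the arrays as the groups of the other source do. Each block therefore takes out the comparison made by the other labels, and these correlations cannot separate shared replicate from group. Signs that changed belonged to differences that missed adjusted p = 0.05, of which SUVH7 with array-file labels had an unadjusted p under 0.05. Array-file values turned with value-table labels for SUVH1 (-0.36), SUVH2 (0.52), SUVH5 (-0.27), SUVH7 (0.54) and SUVH8 (-1.30), and for SUVH8 with median centring (-0.026). Without single arrays the array-file values ran from -0.0049 to 0.44 for SUVH1, -0.82 to 0.034 for SUVH2, -0.061 to 0.30 for SUVH5, -0.058 to 0.14 for SUVH6, -0.70 to 0.72 for SUVH8 and -0.67 to 0.48 for SUVH9. The value-table values ran from -0.13 to 0.080 for SUVH3, -0.091 to 0.13 for SUVH6 and -0.33 to 1.42 for SUVH7, and kept their sign for SUVH8 (-1.36 to -1.23) and SUVH9 (-1.13 to -0.91), with a lone array assumed to vary like the other group. SUVH7 and SUVH8 were not among the genes left by the filters on dim genes. The causes were not tested.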
